A study of Schizosaccharomyces pombe with 15 samples.

Results

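In fission yeast (Schizosaccharomyces pombe), capped RNA 5′ ends were sequenced by CAGE (cap analysis of gene expression), in which a tag marks the position where transcription started. The 42 long noncoding RNAs described here had fewer tags after nitrogen starvation than in the medium the cells came from. They were chosen by measured values from 933 noncoding rows (names starting SPNCRNA) among 5886 genes. Tags were scaled to CPM, the tags of a gene per 1000000 tags of its library, and averaged over the 3 libraries of a group. An RNA was taken if its mean in EMM was at least 2 CPM, its mean after starvation was at most 0.5 times the EMM mean, and its means after heat and after H2O2 were each below 4 times the YES mean. Of the 933 rows, 469 reached 2 CPM in EMM, 46 of these met the condition on starvation, and the limit on heat and H2O2 removed 4 (SPNCRNA.1026, SPNCRNA.1190, SPNCRNA.1337 and SPNCRNA.248). The lower level in starvation is therefore the choice itself and is given as a description, without a test.

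The 15 libraries came from wild-type cells of the h-S 972 strain, grown per the labels as triplicate liquid cultures, with 3 libraries in each of 5 groups. EMM is a defined minimal medium and YES a rich yeast-extract medium, and unstressed cultures in both grew at 30 °C. Starved cells were moved from EMM2 by filtration into EMM2 lacking ammonium chloride and kept there for 16 h at 30 °C. Heat-shocked cells spent 15 min at 39 °C, and H2O2-treated cells spent 15 min at 30 °C with 0.5 mM H2O2. For both short stresses the medium is YES in 1 label and YEL in a second one, and their libraries were set beside the YES libraries. Cells were sampled as whole cultures, so fewer cells making an RNA and less RNA per cell cannot be told apart.

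In fission yeast, RNA polymerase II transcribes many RNAs that code for no protein, among them RNAs that start inside a coding gene and run antisense to it. Most are kept at low levels: the nuclear exosome and its cofactors degrade them in the nucleus, the exonuclease Exo2 degrades them in the cytoplasm, and RNA interference and chromatin factors limit them further. When nitrogen runs out, cells leave the division cycle in G1 and switch on genes for mating and meiosis or enter quiescence. An h- culture has no partner of the other mating type, so its cells stop in that state.

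Library totals ran from 9665353 to 21760682 tags, so 3 tags, taken as the floor of detection, equalled 0.138 to 0.310 CPM. The label of the starved libraries was checked with 4 genes known to respond to lack of nitrogen or glucose. Transcripts of mei2, the RNA-binding switch into meiosis, stood at 104 to 154 CPM in EMM and at 6646 to 10005 CPM in starvation, and ste11, the transcription factor of sexual differentiation, at 4.69 to 5.45 and at 49.8 to 55.6 CPM. The vacuolar protease gene isp6 stood at 61.3 to 90.3 and at 1080 to 3326 CPM, and fbp1 at 0.165 to 0.726 and at 16.8 to 20.2 CPM. Starved library 2 had the highest level of the 3 starved libraries in 17 of the 42 RNAs, 40.5%, against 25.6% of all genes. Where leaving it out moves a remaining share by over 1.5 times, the value without it is given beside it.

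The start sites of 6 of the RNAs are shown because these RNAs had the highest levels in EMM or, among RNAs at 5 CPM or more in EMM, the smallest remaining share in starvation. Each sequence holds 60 bases before the strongest start-site position and 20 bases from it, read 5′ to 3′ on the transcribed strand of the RefSeq assembly ASM294v3. The capitals mark the base before the peak and the peak base. The printed sequence of SPNCRNA.1690 spans chrII:4426442-4426521 on the plus strand, that of SPNCRNA.1278 chrIII:2258128-2258207 on the plus strand and that of SPNCRNA.1351 chrII:387755-387834 on the plus strand. That of SPNCRNA.1061 spans chrI:5224974-5225053 on the plus strand, that of SPNCRNA.606 chrI:96296-96375 on the minus strand and that of SPNCRNA.1307 chrII:84895-84974 on the plus strand.
SPNCRNA.1690: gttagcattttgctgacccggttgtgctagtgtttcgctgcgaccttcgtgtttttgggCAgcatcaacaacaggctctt
SPNCRNA.1278: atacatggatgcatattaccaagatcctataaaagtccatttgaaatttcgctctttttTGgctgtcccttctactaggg
SPNCRNA.1351: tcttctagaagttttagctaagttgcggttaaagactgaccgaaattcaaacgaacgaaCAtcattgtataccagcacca
SPNCRNA.1061: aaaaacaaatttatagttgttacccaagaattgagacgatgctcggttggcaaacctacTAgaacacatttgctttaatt
SPNCRNA.606: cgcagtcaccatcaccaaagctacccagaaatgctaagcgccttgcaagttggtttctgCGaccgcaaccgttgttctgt
SPNCRNA.1307: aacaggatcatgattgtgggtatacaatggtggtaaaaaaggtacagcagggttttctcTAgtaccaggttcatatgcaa

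In all 6 the peak base is a purine after a pyrimidine, the usual step at a start site. Over the 42 RNAs, 37 had this step at the strongest peak, 88.1%, beside 94.4% of the 427 other noncoding RNAs at 2 CPM or more in EMM and 96.9% of all genes. The strongest tag cluster had a median width of 239 bp, close to the 243 bp of the other noncoding RNAs, and its peak lay a median of 160 bp from the annotated start of the 39 RNAs with an annotation. SPNCRNA.539, SPNCRNA.1308 and SPNCRNA.1311 had none in the reference. None of the 42 had a near copy of its first 27 bases elsewhere in the genome with up to 2 mismatches allowed (0 RNAs).

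Together the 42 RNAs gave 279, 255 and 274 CPM in EMM, and 75.4, 77.7 and 74.5 CPM after starvation. The median RNA kept 28.4% of its EMM mean, with a range from 2.78% to 49.5%. For 14 RNAs the starved mean was at most 25% of the EMM mean, for 8 at most 10% and for 5 at most 5%. In all 42 the 3 EMM libraries lay above the 3 starved ones, which was the case for 19.96% of all 5886 genes and for 45 of the 427 other noncoding RNAs, 10.5%. This contrast chose the RNAs, and nothing is read from that count. By edgeR's quasi-likelihood test at an adjusted p under 0.05, 32.9% of all genes were called lower in starvation and 35.7% higher (68.6% in either direction). Of the 427 other noncoding RNAs, 236 were called higher in starvation, 55.3%, and 89 lower, 20.8%. These calls used library sizes scaled by trimmed means of M-values (TMM), unlike the CPM above. On the TMM scale the median log2 change was 0.57 for those 427, −2.28 for the 42, and 0.04 for all genes. With library totals alone it was −1.83 for the 42 and 0.49 for all genes.

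**Figure D1:**
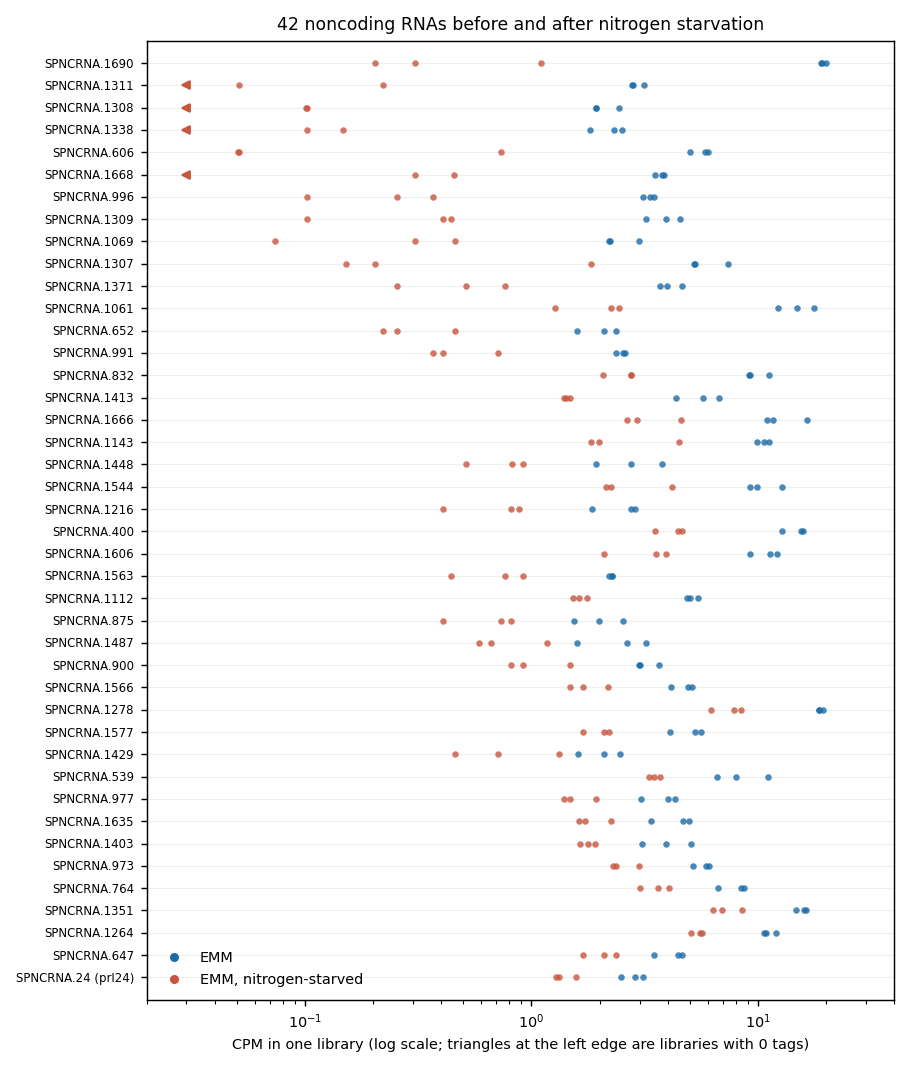
CPM of each of the 42 RNAs in the 3 EMM libraries (blue) and the 3 starved libraries (red) on a log scale, sorted from the smallest remaining share, 2.78%, at the top to the largest, 49.5%, at the bottom. Triangles at the left edge are libraries with 0 tags, and within each row the red points lie left of the blue ones.

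The most abundant of them in EMM was SPNCRNA.1690, which starts inside cao2 on the opposite strand. Its levels were 19.2, 20.02 and 18.9 CPM in EMM and 0.305, 1.10 and 0.204 CPM after starvation. Its starved mean was 2.78% of the EMM mean, the smallest share of group means among the 42, and 1.31% without starved library 2. SPNCRNA.1278, which starts divergently from a coding gene on chromosome III, stood at 18.7, 18.6 and 19.4 CPM in EMM and at 7.87, 6.18 and 8.38 CPM in starvation. Over all its start sites it kept 39.6%, so the 2 most abundant RNAs in EMM had very different remaining shares. In group means its main tag cluster went from 17.2 CPM in EMM to 3.42 CPM in starvation, 0.199 times. The weaker cluster peaking at 2258369 went from 0.377 to 2.47 CPM, that at 2256789 from 1.12 to 1.58 CPM and that at 2257650 from 0.139 to 0 CPM.

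SPNCRNA.1351, antisense to the meiotically upregulated gene mug2, had 16.3, 14.7 and 16.0 CPM in EMM and 6.96, 6.33 and 8.48 CPM in starvation, a remaining share of 46.4%. SPNCRNA.1061, antisense to the mitophagy receptor gene atg43, had 17.6, 12.2 and 14.8 CPM in EMM and 1.27, 2.43 and 2.25 CPM in starvation. Its share was 13.3%, and its highest starved library lay far below its lowest EMM library. SPNCRNA.400, which lies on the same strand upstream of SPBC365.16, had 12.7, 15.8 and 15.4 CPM in EMM and 4.62, 4.42 and 3.52 CPM in starvation. SPNCRNA.1666, antisense to ilv5, had 16.5, 10.97 and 11.7 CPM in EMM and 2.64, 4.56 and 2.91 CPM in starvation. These last 2 kept 28.6% and 25.9%, close to the median of the 42.

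SPNCRNA.1264, antisense to pku70, had 10.9, 10.6 and 11.997 CPM in EMM and 5.54, 5.67 and 5.06 CPM in starvation. SPNCRNA.1606, which has no coding gene in any of the positions considered below, had 11.3, 9.21 and 12.1 CPM in EMM and 3.91, 3.53 and 2.09 CPM in starvation. Among RNAs at 5 CPM or more in EMM, SPNCRNA.606 and SPNCRNA.1307 had the smallest shares after SPNCRNA.1690. SPNCRNA.606 starts inside isp3 on the opposite strand and had 6.04, 5.02 and 5.85 CPM in EMM and 0.0508, 0.736 and 0.0511 CPM in starvation. Starved library 2 held nearly all of its starved tags: the share was 4.96% with that library and 0.904% without it. SPNCRNA.1307, inside the arylsulfatase gene SPBPB10D8.02c, had 7.37, 5.29 and 5.22 CPM in EMM and 0.152, 1.84 and 0.204 CPM in starvation. Its share moved in the same way, from 12.3% to 2.99% without starved library 2.

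The other RNAs at 5 CPM or more with small shares were SPNCRNA.832, SPNCRNA.1413 and SPNCRNA.1143. SPNCRNA.832, antisense to the stress-response gene ddr48, had 11.2, 9.26 and 9.14 CPM in EMM and 2.74, 2.06 and 2.76 CPM in starvation. SPNCRNA.1413, antisense to cft2, had 5.71, 6.73 and 4.35 CPM in EMM and 1.42, 1.40 and 1.48 CPM in starvation. SPNCRNA.1143, on chromosome III away from the gene positions considered below, had 9.89, 11.1 and 10.6 CPM in EMM and 1.98, 4.49 and 1.84 CPM in starvation. The 3 kept 25.5%, 25.6% and 26.3%. Without starved library 2, the highest for SPNCRNA.1143, the shares were 27.9%, 25.9% and 18.1%.

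For 3 RNAs the starved libraries held at most 3 tags each. SPNCRNA.1308 had 4 tags in starvation over the 3 libraries and 113 in EMM, a ratio of 3.61% with a 95% counting interval of 0.966% to 9.50%. SPNCRNA.1311 had 4 and 157 tags, a ratio of 2.60% (0.699% to 6.78%), and SPNCRNA.1338 had 4 and 120 tags, a ratio of 3.40% (0.911% to 8.93%). Averaged over CPM and without starved library 2, the share of SPNCRNA.1311 went from 3.11% to 0.877% and that of SPNCRNA.1338 from 3.75% to 2.30%. The 3 intervals overlap, so the order of these RNAs was not detectable at this depth. The intervals cover counting error only, since without molecular identifiers several tags can stem from 1 RNA molecule.

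The RNA with the largest remaining share was prl24 (SPNCRNA.24), the only one of the 42 with a gene symbol, at 2.86, 2.48 and 3.10 CPM in EMM and 1.57, 1.33 and 1.28 CPM in starvation. Its share was 49.5%, and the next below it were SPNCRNA.647 with 48.9% and SPNCRNA.1264 with 48.6%. Just outside the limit lay SPNCRNA.1609 with 50.3%, SPNCRNA.608 with 52.6% and SPNCRNA.1162 with 53.7%. The shares run across the limit without a gap, and the number of RNAs depends on the scaling. With library sizes scaled by trimmed means of M-values (TMM), 78 RNAs met the same rule, and with DESeq2 size factors 72 did, all of the 42 among them.

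Outside starvation these RNAs did not form 1 pattern. Their summed level was 418 ± 30.3 CPM (SD, n = 3) in YES, 415 ± 15.6 CPM after H2O2, 368 ± 55.1 CPM after heat and 269 ± 12.7 CPM in EMM, against 75.9 ± 1.64 CPM in starvation. The median RNA stood at 7.28 CPM in YES, 6.68 CPM after H2O2, 5.65 CPM after heat, 4.25 CPM in EMM and 1.41 CPM in starvation. YES was the highest group for 16 RNAs, EMM for 12, H2O2 for 10 and heat for 4, and starvation was the lowest group for 38. In 41 of the 42 the 3 YES libraries lay above the 3 starved ones (97.6%, beside 23.9% of all genes), although YES against starvation differs in medium as well as in nitrogen. The rule chose the RNAs for a low starved level, so this count and that of the lowest group are descriptions, and nothing is read from them.

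**Figure D2:**
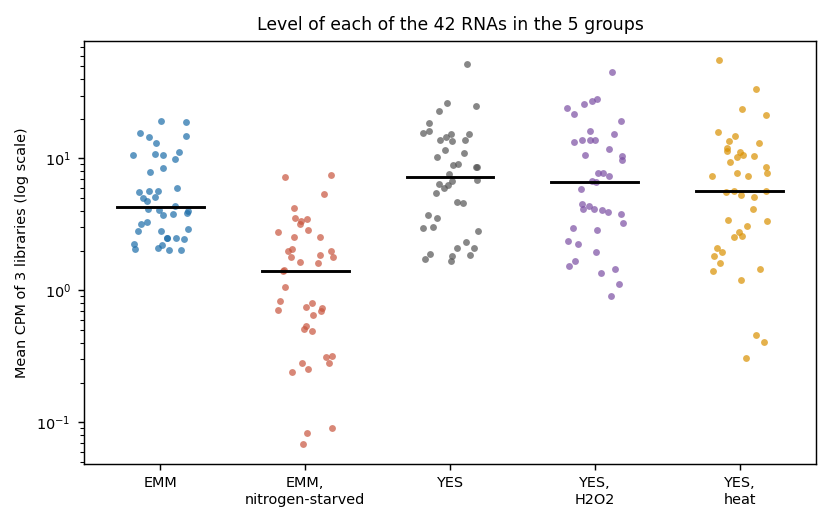
Mean CPM of 3 libraries for each of the 42 RNAs (points) in the 5 groups on a log scale, with the median of the 42 as a black bar. The median bar is at 7.28 CPM in YES, 4.25 CPM in EMM and 1.41 CPM in starvation, and the heat group spreads from 0.309 to 55.8 CPM.

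Many of them were more abundant in rich than in minimal medium before any stress. The 3 YES libraries lay above the 3 EMM libraries in 22 RNAs (52.4%, beside 19.4% of all genes), and the reverse held for 6 (12.2% of all genes). By edgeR, 16 of the 42 were called lower in EMM than in YES and 1 higher, beside 7.24% and 5.95% of all genes (13.2% in either direction). The EMM level was part of the rule and the EMM libraries are also the controls of starvation, so these counts are a description. The largest gap belonged to SPNCRNA.1307, at 47.2, 53.1 and 56.4 CPM in YES against a mean of 5.96 CPM in EMM, and SPNCRNA.606 followed with 26.7, 26.0 and 26.0 CPM in YES against 5.64 CPM. SPNCRNA.1413 had 17.1, 17.98 and 13.4 CPM in YES, and SPNCRNA.875, antisense to the glycine decarboxylase gene gcv1, had 7.55, 10.4 and 9.23 CPM against an EMM mean of 2.03 CPM. SPNCRNA.1278 was the 1 RNA called the other way, with 8.59, 8.82 and 8.43 CPM in YES, below each of its EMM libraries.

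The limit on heat and H2O2 kept strongly raised RNAs out, so the comparisons of both with YES, which share the YES libraries, are also descriptions. Heat brought 3 RNAs called higher and 13 called lower, beside 22.2% and 20.1% of all genes (42.3% in either direction). H2O2 brought 1 called higher and 4 called lower, beside 11.3% and 8.78% (20.05% in either direction). The median ratio to YES was 0.777 after heat and 0.884 after H2O2, with ranges of 0.147 to 3.23 and 0.385 to 2.10. SPNCRNA.539, which lies upstream of the pheromone exporter gene mam1, was called higher in both. It had 13.1, 12.4 and 14.8 CPM in YES, 20.6, 32.4 and 18.3 CPM after heat and 31.2, 29.1 and 24.5 CPM after H2O2. Each short stress lasted 15 min, against 16 h of starvation.

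Heat was compared with H2O2 directly, a contrast the rule did not use beyond capping both against YES. By edgeR 11 of the 42 RNAs differed, 26.2%, beside 27.7% of all genes, with 3 higher after heat (15.7% of all genes) and 8 lower (11.99% of all genes). The share is near the background, and the median log2 difference was −0.04 for the 42 and −0.00 for all genes. In CPM by library totals the 3 heat libraries lay above the 3 H2O2 libraries in 3 RNAs (7.14%, beside 13.7% of all genes) and below them in 12 (28.6%, beside 30.4%). With library totals in place of TMM the median of all genes moved from −0.00 to −0.20, and 9 RNAs were called lower and 3 higher.

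SPNCRNA.1351 had the highest level of the 42 after heat, with 48.8, 67.7 and 50.9 CPM after heat, 23.1, 21.3 and 20.6 CPM after H2O2 and 17.3, 18.6 and 20.1 CPM in YES. Its log2 difference between heat and H2O2 was 1.56 ± 0.14 (SE; edgeR adjusted p = 4.97e-07), and all 3 heat libraries lay above every other library. SPNCRNA.996, divergent from the But2 family gene SPAC27D7.11c, had 10.9, 13.8 and 9.65 CPM after heat and 3.82, 4.87 and 4.76 CPM after H2O2 (log2 difference 1.54 ± 0.20, edgeR adjusted p = 3.18e-05). SPNCRNA.1278 differed by 1.38 ± 0.18 (edgeR adjusted p = 2.96e-05) in another way: it had 9.05, 9.49 and 7.24 CPM after heat, near its YES libraries, and 4.80, 3.03 and 3.50 CPM after H2O2, below them.

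Of the 8 lower after heat, SPNCRNA.1143 and SPNCRNA.1487 differed most. SPNCRNA.1143 had 7.58, 6.79 and 7.69 CPM after heat and 22.1, 21.6 and 28.5 CPM after H2O2, with 15.1, 15.3 and 16.1 CPM in YES between them (log2 difference −1.51 ± 0.24, edgeR adjusted p = 1.71e-04). SPNCRNA.1487, upstream of the flavin oxidoreductase gene SPBC23G7.10c, had 0.172, 0.306 and 0.449 CPM after heat and 1.18, 1.42 and 1.45 CPM after H2O2 (log2 difference −1.84 ± 0.45, edgeR adjusted p = 0.00669). Its heat values were near the floor of detection. The other 6 were SPNCRNA.1069, SPNCRNA.606, SPNCRNA.1606, SPNCRNA.400, SPNCRNA.1309 and SPNCRNA.1112, with log2 differences from −1.25 to −0.59. SPNCRNA.606 was not called with limma on the deposited log2 values (−1.22).

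**Figure D3:**
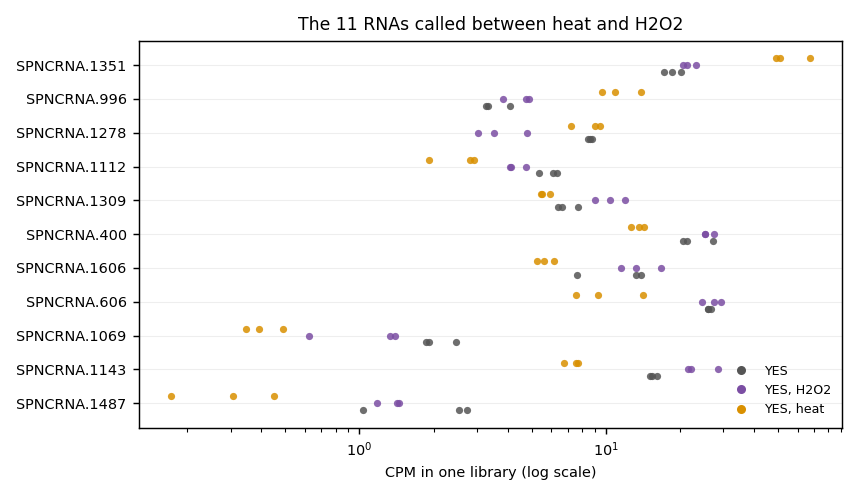
CPM in each YES (grey), H2O2 (purple) and heat (orange) library for the 11 RNAs called between heat and H2O2, on a log scale. SPNCRNA.1351, SPNCRNA.996 and SPNCRNA.1278 have their heat libraries to the right of the H2O2 libraries, and in the other 8 the heat libraries lie to the left.

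Of the 42 RNAs, 22 had at least 2 tag clusters, and the 42 had 72 clusters in all. Among the 43 clusters of those 22 that reached 0.5 CPM in EMM, 34 had a starved mean of at most 0.5 times the EMM mean and 2 lay above it. These were 21 of the 22 main clusters, which carry most of the level that chose the RNAs, and 13 of the 21 weaker ones. In 3 RNAs, chosen after their values were seen, a weaker cluster upstream was at least 4 times as high after heat as in YES. In SPNCRNA.1278 a cluster 538 bp upstream of the main peak had 0.310, 0.176 and 0.159 CPM in YES and 3.10, 3.18 and 3.09 CPM after heat. In SPNCRNA.1566 a cluster 1791 bp upstream had 0.207, 0.0882 and 0.212 CPM in YES and 2.84, 4.84 and 3.20 CPM after heat. In SPNCRNA.1544 a cluster 163 bp upstream had 0.414, 0.353 and 0.584 CPM in YES and 1.90, 2.08 and 2.69 CPM after heat. The level of the main cluster of SPNCRNA.1278 went the other way, from 6.41, 6.61 and 6.31 CPM in YES to 3.62, 4.22 and 2.47 CPM after heat. The near-equal totals of that RNA in YES and heat thus held a different mix of the same start sites.

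The main start site of 28 of the 42 RNAs, 66.7%, lay inside a coding gene on the opposite strand, beside 176 of the 427 other noncoding RNAs at 2 CPM or more in EMM, 41.2%. Each RNA was counted in 1 position only, antisense before divergent and divergent before upstream. Divergent starts that were not antisense, within 500 bp of the 5′ end of a coding gene on the other strand, made up 11.9% of the 42 and 27.6% of the others. With antisense starts included, 11 coding genes lay divergent to the 42 and 155 to the others, so the divergent shares depend on this order. Another 5 of the 42, 11.9%, lay upstream of a coding gene on its strand (14.1% of the others), 4 fitted none of these positions, and 0 lay inside a coding gene on its own strand (3.98% of the others). The difference in antisense share was not tested, since the RNAs were chosen with earlier results known. The remaining share did not separate the positions: its median was 29.2% for the 28 antisense RNAs and 28.4% for the other 14.

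**Figure D4:**
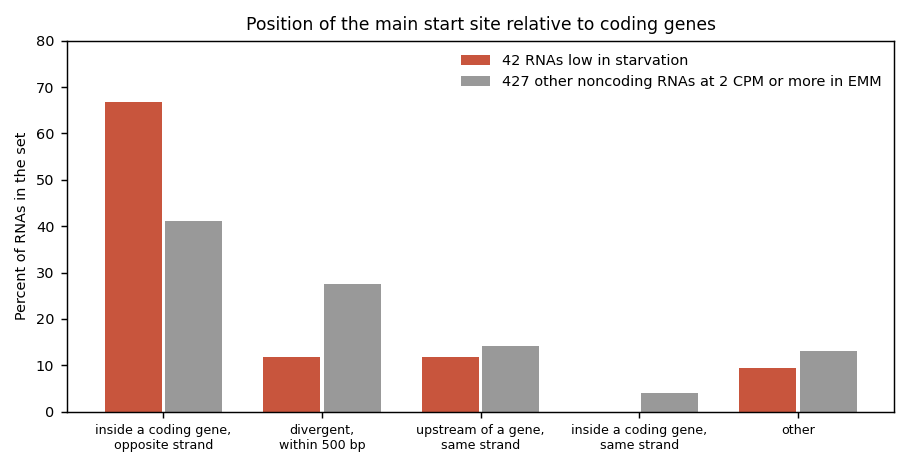
Percent of RNAs by the position of the main start site relative to coding genes, for the 42 RNAs (red bars) and the 427 other noncoding RNAs at 2 CPM or more in EMM (grey bars). Each RNA is counted once, antisense before divergent and divergent before upstream. The antisense bar is at 66.7% for the 42 and 41.2% for the others, and the divergent bar at 11.9% and 27.6%.

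By chromosome, 24 of the 42 lay on II, 57.1%, beside 34.4% of the other noncoding RNAs, 13 on I (31.0% beside 45.0%) and 5 on III (11.9% beside 20.6%). Within 125 kb of a chromosome end lay 6 of the 42, 14.3%, beside 6.56% of the others, and this distance was chosen after the values were seen. Within 100 kb the shares were 4.76% and 3.51%. Of the 5 RNAs that kept at most 5%, 4 lay within 125 kb of an end: SPNCRNA.606 near the left end of I, SPNCRNA.1308 and SPNCRNA.1311 near the left end of II, and SPNCRNA.1690 113302 bp from the right end of II.

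Near the left end of II, 4 of the 42 lay within 35.7 kb: SPNCRNA.1307 with its peak at 84955, SPNCRNA.1308 at 104501, SPNCRNA.1309 at 108522 and SPNCRNA.1311 at 120644. SPNCRNA.1311 had 2.79, 3.14 and 2.81 CPM in EMM, 0, 0.221 and 0.0511 CPM in starvation and 6.31, 9.70 and 9.92 CPM in YES. SPNCRNA.1308 had 1.93, 2.43 and 1.93 CPM in EMM, 0.102, 0 and 0.102 CPM in starvation and 7.04, 5.73 and 6.21 CPM in YES. SPNCRNA.1309, antisense to the alanine racemase gene alr2, had 3.92, 3.20 and 4.55 CPM in EMM, 0.406, 0.442 and 0.102 CPM in starvation and 6.41, 6.61 and 7.74 CPM in YES. All 4 thus shared the order YES, then EMM, then starvation, with no overlap between the groups. The rule itself put starvation below EMM in each. The 24 other genes of the first 125 kb divided evenly in starvation, with 8 called higher and 8 lower (33.3%), near the 35.7% and 32.9% of all genes. Between EMM and YES, 12 of them were called lower in EMM, 50%, and 1 higher, beside 7.24% and 5.95% of all genes. Their median log2 difference was −0.88.

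Tags carry the strand they came from, so the coding gene opposite each antisense RNA was read separately. Of the 28 partner genes, 17 rose in starvation and 8 fell by edgeR's quasi-likelihood test (adjusted over all 5886 genes), and 3 were not called. That is 60.7% higher and 28.6% lower, beside 35.7% and 32.9% of all genes and 41.3% and 28.1% of the 167 partners of the other noncoding RNAs. The median log2 change of the 28 was 1.05, beside 0.04 for all genes. In CPM by library totals, all 17 that rose had every starved library above every EMM library. On the same scale 16 partners had a starved mean of at least 2 times the EMM mean. The shares of all genes for these counts were not computed, so nothing is read from them. Scaling matters for the lower calls. Of all genes called in starvation, 52.0% were higher under TMM and 73.0% with library totals alone. With library totals alone the median of all genes was 0.49, and 19 partners were called higher and 5 lower. Under that scaling rpc37, ips1 and taf51 were no longer called lower, and pku70 turned from −0.02 to 0.43 and was called higher. A log2 change below is on the TMM scale, so a gene with equal CPM in both groups has a negative one.

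The largest rise was that of hsp3105 (SPAC1F7.06), a glyoxalase III of the ThiJ family opposite SPNCRNA.973. It went from 0.598, 0.331 and 0.387 CPM in EMM to 102, 97.5 and 91.2 CPM in starvation (log2 change 7.35 ± 0.26 SE, edgeR adjusted p = 1.62e-11). SPNCRNA.973 itself had 5.18, 6.07 and 5.90 CPM in EMM and 2.997, 2.36 and 2.30 CPM in starvation, so in EMM the antisense RNA was more abundant than the gene and in starvation the reverse held. Its main cluster, which sets the pairing with hsp3105, had a starved mean of 0.564 times its EMM mean, above the limit of the rule. Its weaker cluster had 0.157 times. SPBC1773.12, a transcription factor gene opposite SPNCRNA.1338, had 0.133, 0.276 and 0.0484 CPM in EMM and 11.7, 15.2 and 9.65 CPM in starvation (log2 change 5.83 ± 0.46, edgeR adjusted p = 6.31e-07). SPNCRNA.1338 was again above its gene in EMM, with 2.32, 1.82 and 2.52 CPM, and below it in starvation, with 0, 0.147 and 0.102 CPM. The meiotically upregulated gene mug147, opposite SPNCRNA.1668, rose from 6.91, 6.84 and 7.21 CPM to 125, 145 and 121 CPM (log2 change 3.77 ± 0.21, edgeR adjusted p = 1.21e-09), while its antisense RNA had 3.52, 3.86 and 3.77 CPM and 0.457, 0 and 0.306 CPM. The rule chose the antisense RNAs for a low starved level, so a turn toward the gene strand is partly fixed by it and is a description. The gene was above the antisense RNA in every EMM library in 21 of the 28 pairs and in every starved library in 27. In the remaining pair, alr2 and SPNCRNA.1309, the starved libraries held 1, 15 and 0 tags of the gene and 8, 6 and 2 of the RNA, so their order turned on starved library 2.

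Of the genes opposite the 5 antisense RNAs most abundant in EMM, cao2, atg43 and mug2 rose, ilv5 fell and pku70 was not called. The amine oxidase-like gene cao2, opposite SPNCRNA.1690, went from 4.71, 5.35 and 5.22 CPM to 49.4, 49.4 and 52.1 CPM (log2 change 2.85 ± 0.13, edgeR adjusted p = 1.59e-10). The mitophagy receptor gene atg43, opposite SPNCRNA.1061, went from 49.0, 48.0 and 52.7 CPM to 339, 257 and 348 CPM (log2 change 2.20 ± 0.13, edgeR adjusted p = 3.37e-09). The stress gene ddr48, opposite SPNCRNA.832, went from 34.3, 28.7 and 27.4 CPM to 243, 409 and 307 CPM (log2 change 2.95 ± 0.22, edgeR adjusted p = 2.93e-08). At cao2 the antisense RNA was the more abundant strand in EMM and the gene in starvation, whereas at atg43 and ddr48 the gene was above its antisense RNA in both. The other genes that rose included the aminotransferase gene SPAC27F1.05c (log2 change 3.10), the transporter genes mfs1 (2.98) and vsb1 (2.69), the nuclease gene mre11 (1.40, and 0.93 without starved library 3), mug2 (1.43) and the mRNA 3′ processing gene cft2 (0.76).

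In 8 pairs the gene was called lower on the TMM scale, beside an antisense RNA chosen for its lower level. With library totals alone rpc37, ips1 and taf51 among these had log2 changes of 0.10, −0.01 and −0.11 and were not called. The arylsulfatase gene SPBPB10D8.02c, opposite SPNCRNA.1307, went from 91.8, 90.2 and 89.2 CPM to 1.17, 2.50 and 0.817 CPM (log2 change −6.43 ± 0.26, edgeR adjusted p = 4.02e-11), the largest fall among the 28. The spore gene isp3 (SPAC1F8.05), opposite SPNCRNA.606, went from 16.7, 14.7 and 15.7 CPM to 2.18, 1.25 and 1.63 CPM (log2 change −3.64 ± 0.18, edgeR adjusted p = 4.14e-10). The main peak of isp3 lay 640 bp inside its annotated start and 115 bp from the peak of SPNCRNA.606, so its tags came from an internal start site. The other 6 were sua1, the sulfate adenylyltransferase (log2 change −2.22), gcv1, the glycine decarboxylase T subunit (−1.64), ilv5 of branched-chain amino acid synthesis (−1.58), taf51, a subunit of the general transcription factor TFIID (−0.56), ips1, a tRNA modification enzyme (−0.47), and rpc37, a subunit of RNA polymerase III (−0.35). The mean of ilv5 was 3851 ± 110.4 CPM in EMM and 1761 ± 229.5 CPM in starvation (SD, n = 3), and with limma on the deposited log2 values it was not called (−0.28).

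**Figure D5:**
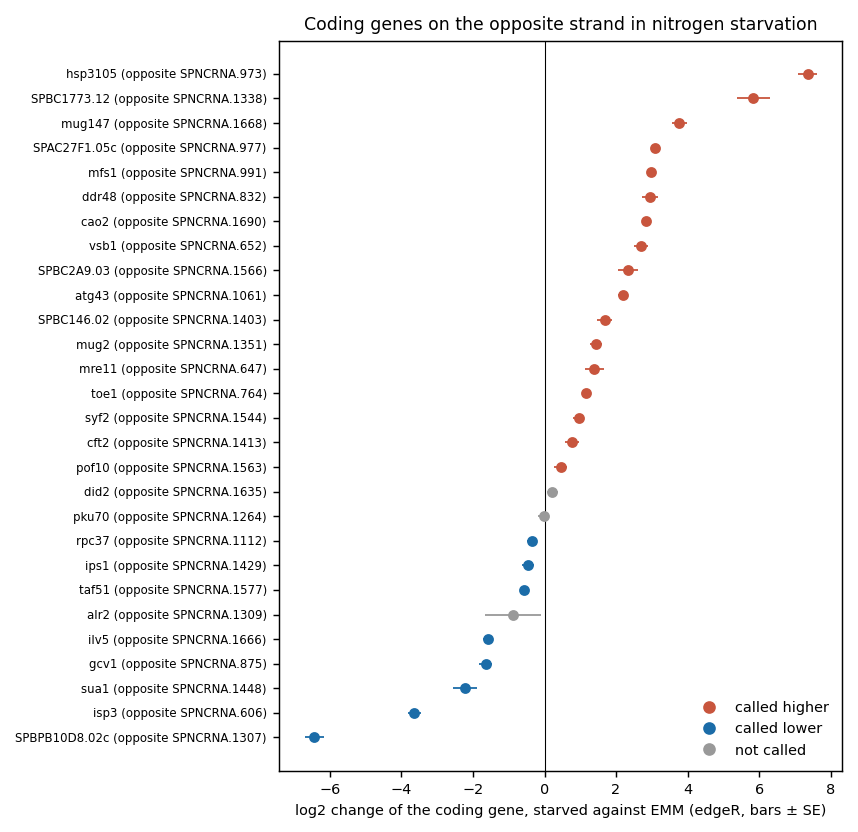
edgeR log2 change in starvation against EMM, with its SE, for the 28 coding genes that hold the start site of one of the 42 RNAs on their opposite strand. Red points are the 17 genes called higher, blue points the 8 called lower and grey points the 3 not called, from 7.35 for hsp3105 to −6.43 for SPBPB10D8.02c.

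The antisense starts lay a median of 62.2% along the partner gene from its annotated start, from 15.8% to 98.9%, beside a median of 66.2% for the other antisense RNAs. In 16 pairs the start lay beyond the middle of the gene. A looser pairing by overlap of annotated spans gave 37 genes, of which 21 were called higher and 10 lower. Without the 3 partners below 1 CPM in EMM the counts were 15 higher and 8 lower of 25.

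Some of these partners are also stress genes, and after seeing the data they were counted in heat and in H2O2. After heat, 8 of the 28 rose against YES, 28.6%, and 7 fell, 25%, near the 22.2% and 20.1% of all genes. After H2O2, 5 rose, 17.9%, and 2 fell, 7.14%, beside 11.3% and 8.78% of all genes. The gene ddr48 went from 111 ± 16.7 CPM in YES to 4339 ± 296 CPM after heat and 1926 ± 355 CPM after H2O2 (SD, n = 3; log2 changes 5.46 and 4.09). Its antisense RNA SPNCRNA.832 had 14.6, 14.1 and 13.0 CPM in YES, 10.8, 12.5 and 8.13 CPM after heat and 13.6, 12.5 and 9.05 CPM after H2O2. The ranges of SPNCRNA.832 in YES and heat did not overlap, with a smaller gap than between its EMM and starved libraries. The genes hsp3105 (log2 change 4.37) and mug147 (3.20) also rose after heat, and their antisense RNAs SPNCRNA.973 and SPNCRNA.1668 stood at 3.62, 3.30 and 3.31 CPM and at 2.15, 2.82 and 2.75 CPM. SPNCRNA.1668 was thus slightly above its YES libraries at 1.86, 1.67 and 1.91 CPM, and SPNCRNA.973 below its own at 6.21, 7.14 and 5.73 CPM. With library totals alone the partners divided into 5 higher and 12 lower after heat. Of all genes called in that contrast, 36.7% were higher under that scaling and 52.4% under TMM.

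The next coding gene downstream on the same strand, within 3 kb, was read for 17 of the RNAs. In starvation 8 of these genes rose, 47.1%, and 4 fell, 23.5%, so neither share stood far from the 35.7% and 32.9% of all genes. The gene hhy1, a hydrolase gene downstream of SPNCRNA.606, went from 0.465, 0.276 and 0.580 CPM to 31.5, 31.6 and 33.3 CPM (log2 change 5.70 ± 0.29, edgeR adjusted p = 4.44e-10). The gene mam1, the exporter of M-factor pheromone downstream of SPNCRNA.539, went from 24.6, 16.1 and 19.2 CPM to 225, 207 and 234 CPM (log2 change 3.02 ± 0.28, edgeR adjusted p = 2.66e-07). SPNCRNA.539 had 11.02, 6.56 and 7.98 CPM in EMM and 3.30, 3.46 and 3.68 CPM in starvation, the opposite direction. The meiotic gene mug121 downstream of SPNCRNA.647 (log2 change 4.40) and SPAC11E3.14 downstream of SPNCRNA.1069 (1.66) rose too, and the splicing protein gene smf1 downstream of SPNCRNA.1544 fell (−1.47). Within 1 kb there were 3 such genes, and 1 was called. Scaled by library totals alone, 11 of the 17 were called higher and 3 lower, when 73.0% of all genes called were higher.

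Genes that start divergently within 500 bp of the RNA numbered 11, a set added after the data were seen. Of these 1 rose, 9.09%, beside 38.7% of the divergent genes of the other noncoding RNAs and 35.7% of all genes. A further 6 fell, 54.5%, beside 34.8% and 32.9%. SPAC27D7.11c, a But2 family gene that starts 313 bp from SPNCRNA.996, went from 203, 300 and 201 CPM to 21.8, 25.03 and 22.7 CPM (log2 change −3.79 ± 0.22, edgeR adjusted p = 2.22e-09). SPNCRNA.996 had 3.32, 3.47 and 3.10 CPM in EMM and 0.254, 0.368 and 0.102 CPM in starvation. After heat the pair was high on both strands: the mean of SPAC27D7.11c was 310 ± 85.1 CPM against 37.0 ± 3.02 CPM in YES (SD, n = 3), beside 11.5 ± 2.14 CPM and 3.55 ± 0.462 CPM for SPNCRNA.996. The other divergent genes that fell most were SPAC24H6.10c, the entry enzyme of aromatic amino acid synthesis (log2 change −2.75), the chitin synthase regulatory gene cfh4 (−2.47), acl1 of citrate cleavage (−1.54) and the phosphatase gene pho2 (−1.23). The gene wwm1, divergent from prl24, rose (0.90). With library totals alone 2 of the 11 were called higher and 5 lower, when 73.0% of all genes called were higher.

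The machinery that makes, ends and degrades noncoding RNA was read from 6 gene lists. Of 25 genes of the nuclear exosome and its cofactors, 6 rose in starvation, 24.0%, and 14 fell, 56.0%, beside 35.7% and 32.9% of all genes. The median log2 change was −0.57. The poly(A)-binding protein gene pab2, which directs RNAs to the exosome, went from 46.0, 51.8 and 55.5 CPM to 26.9, 22.6 and 26.7 CPM (log2 change −1.46), and the exosome cap subunit gene csl4 from 15.1, 10.4 and 12.05 CPM to 7.32, 4.34 and 7.30 CPM (−1.43). The core subunit gene rrp43 was called higher (1.33), with starved libraries at 5.94, 6.70 and 27.7 CPM, and without starved library 3 its log2 change was 0.29 and not called. With library totals alone 8 of the 25 rose and 7 fell. Under that scaling 73.0% of all genes called were higher, against 52.0% under TMM. The counts by library totals in this list and the lists below stand beside that shift.

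Of 12 RNA polymerase II subunit genes, 0 were called higher and 6 lower, 50%, beside 35.7% and 32.9% of all genes. Among the 6 were rpb6 (log2 change −2.01), rpb11 (−1.91) and rpb3 (−1.03). With library totals alone 6 were still called lower and 2 higher. The gene rpb11 went from 70.5, 73.7 and 80.6 CPM to 31.2, 25.7 and 24.9 CPM. Of 18 genes of termination and 3′ end processing, 5 rose, 27.8%, and 6 fell, 33.3%, near the shares of all genes, with pcf11 (1.10), ysh1 (−0.97) and rna14 (−0.90) changed most. Scaled by library totals alone, 8 of the 18 rose and 4 fell. Without fip1 and clp1, which were matched to another protein through a shared name, 4 of 16 rose and 6 fell on the TMM scale. Of 18 chromatin factors that limit antisense or cryptic transcription, 5 rose, 27.8%, and 9 fell, 50%, beside 35.7% and 32.9% of all genes. The deacetylase complex gene pst2 was higher (1.83) and the complex partners alp13 (−1.06) and cph1 (−1.04) were lower. On library totals alone, 6 rose and 5 fell.

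Of 11 genes of RNA interference, 7 rose, 63.6%, and 1 fell, 9.09%, beside 35.7% and 32.9% of all genes. With 1 library left out, 5 to 10 of the 11 were called, and the count by library totals is not given for this list. The Argonaute chaperone gene arb2 went from 14.5, 13.5 and 11.6 CPM to 35.1, 33.1 and 50.6 CPM (log2 change 1.13), and the Dicer gene dcr1 from 8.43, 11.6 and 9.92 CPM to 24.2, 31.1 and 16.9 CPM (0.82). The call of dcr1 was lost without EMM library 1 or 3 or starved library 2. The 1 that fell, gus1 (−1.20), is a glutamyl-tRNA synthetase gene that was matched through a shared synonym, and without it the list counts 7 higher and 0 lower of 10. Of 15 genes of cytoplasmic decay, 6 rose, 40%, and 2 fell, 13.3%, beside the same shares of all genes, and with library totals alone 10 rose and 1 fell. Without hba1, which was matched through a shared name, 6 of 14 rose and 2 fell on the TMM scale. The genes called included upf2 (2.72, and 1.75 without starved library 3), with starved libraries at 10.6, 33.9 and 89.6 CPM, its nonsense-mediated decay partner upf1 (−1.15) and the exosome adaptor ski7 (1.10). Whether any of these changes bears on the 42 RNAs was not tested.

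Short motifs were searched on both strands from 250 bases before to 50 after the main peak of each RNA. TATAAA was found in 18 of the 42 windows, 42.9%, beside 34.7% of the other noncoding RNAs and 46.1% of all genes. At 25 to 40 bases before the peak on the transcribed strand, where a TATA box sits, it was found in 1, SPNCRNA.1278 (2.38%, beside 5.33% of all genes). There it starts 33 bases before the peak, and its letters can be read in the sequence printed above. AGATAAG was in 3 (7.14%, beside 4.25%), and TGACGT, the core of the CRE motif, in 3 (7.14%, beside 6.73%). The forkhead motif GTAAACAAA was in 2 (4.76%, beside 4.91%). TTCTTTGTT, the core of the TR box to which Ste11 binds, CAGTCACA (the HomolD box), the full CRE motif TGACGTCA, ACGCGT (the MluI motif) and CCTCGTA, included as a sequence with no assumed role, were in 0 of the 42 windows and in at most 3.06% of those of all genes. TGACGT lies inside TGACGTCA, and no other motif holds another. The GC content of the windows had a median of 37.0%, beside 35.0% and 33.3%. A motif present or absent in a window says nothing of whether a factor binds there.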

How the data were processed

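CAGE tags of 15 libraries (3 in each of 5 groups, named by the sample labels) had been counted per gene and per tag cluster. The authors deposited whole-number tag counts for 5886 genes, with 0 columns left unmatched to a library, and normalized log2 values per gene, which were used only as an alternative. Per the submitters' processing notes, CASAVA 1.6, Bowtie 0.12.7 and the build ASM294v2 were used; their roles beyond that, the clustering and the normalization are not given in the sources used here. CPM were computed from the deposited counts by dividing by the library total, without scaling factors. Coordinates come from the deposited list of clusters, in 1-based form, and were read on ASM294v3 from RefSeq: a pyrimidine-purine step lay at 85.1% of the 13003 cluster peaks, against 4.71% and 2.84% when the peaks were moved by 1 base either way, and 0 clusters ran past a chromosome end.

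The members and the gene lists were chosen with earlier results of these data known. Tests were edgeR 4.0.16 quasi-likelihood fits (R 4.3.3, TMM scaling, robust dispersion, filterByExpr, Benjamini-Hochberg over 5886 genes, threshold 0.05) of all 15 libraries in 1 model, tested on simulated data first. The low-count filter removed no row, so all 42 members and all 5886 genes passed it. P-values rest on the spread between the 3 cultures within groups, pooled over the 5 groups and moderated across genes, not on the 6 compared libraries alone. Any pair of replicates differed by more than sampling noise (lowest chi-square per degree of freedom 17.7). Replicate numbers were treated as names only. Named members were the 8 with the highest EMM mean, the 8 with the smallest remaining share at 5 CPM or more in EMM, the member with a symbol, the 5 with the largest difference between heat and H2O2, and 3 on each side of the 0.5 limit. Named partner and list genes were the 5 and 3 with the largest changes among those called, and other genes were named after their values were seen. Alternatives were DESeq2 1.42.0 size factors and its Wald test, library totals, no filter, limma 3.58.1, 6 libraries in a fit, a replicate block and leaving out each library. Of the list names, dcp1 was not matched, and 4 were matched to another protein through a shared name (gus1, hba1, fip1 and clp1). A further promoter motif that was searched is not reported here.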

Additional observations from a re-analysis of the deposited data

How the results depend on the processing

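The number of RNAs that met the rule depended on the scaling: it was 42 by library totals, 78 with TMM-scaled CPM and 72 with DESeq2-scaled CPM. It was 18 with an EMM minimum of 5 CPM, 14 when the starved mean had to be at most 25% of the EMM mean, and 39 to 45 when 1 library was left out. The number called between H2O2 and YES was 5, and 8 with the DESeq2 Wald test. Leaving out each library in turn gave 3 to 7 for H2O2 against YES (3 without YES library 2), 15 to 17 for heat against YES, 12 to 19 for EMM against YES and 8 to 12 for heat against H2O2. For the partner genes in starvation it gave 23 to 25 called, for the downstream neighbours 11 to 12 and for the divergent genes 7 to 8. For the lists it gave 16 to 20 for the exosome, 5 to 8 for cytoplasmic decay (5 without starved library 2), 5 to 10 for RNA interference (5 without EMM library 3), 8 to 12 for termination, 6 to 7 for RNA polymerase II and 10 to 15 for the chromatin factors. Of the neighbours, 1 was called with a limit of 1 kb. The change of pku70 reversed with library totals, from −0.02 to 0.43. Where a call was lost otherwise, the cause was not tested: rrp43 was lost under 6 alternatives, dcr1 under 4, and SPNCRNA.606, gus1 and ilv5 under limma alone.

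Over all groups, replicate numbers showed no steady pairing of the libraries. Of 30 correlations of the deviations of same-numbered libraries, 10 were over 0.1, with a range from −0.40 to 0.53. Between EMM and starved libraries they were positive, at 0.06, 0.30 and 0.11. With the replicate block 11 of the 42 RNAs were called between heat and H2O2 and 25 partner genes in starvation, both as without it, and 17 RNAs between EMM and YES.

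Low tag counts limit the 3 RNAs with at most 3 tags in each starved library, whose remaining shares cannot be ordered. Starved library 2 moved the starved mean of 5 RNAs by over 1.5 times (SPNCRNA.1690, SPNCRNA.1307, SPNCRNA.606, SPNCRNA.1311 and SPNCRNA.1338), and without it the median share was 28.2% and 45 RNAs met the rule, 41 of them shared.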
